A study of Mus musculus with 8 samples.

Results

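The mitosis genes described here are 40 genes whose products drive cells into, through and out of cell division, taken as a list of gene symbols that a microarray probe could be matched to through its RefSeq accession. They are 40 of the 19751 genes named in this way, and 59 probes stood for them. Of the 40 genes, 37 passed a filter on dim probes and were tested among 15834 genes. Cdc25c, a phosphatase that activates Cdk1, Ttk, a spindle checkpoint kinase, and Cenpf, a kinetochore protein, did not pass it.

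RNA of whole mouse livers was measured on 8 one-colour Agilent arrays, 1 array per mouse, in 4 groups of 2 mice: AKP::Keap1 males, AKP males, AKP::Keap1 females and AKP females. All 8 mice carried, in the liver, mutant p53 (R172H) together with an activated oncogene, and those called AKP::Keap1 in addition lacked Keap1 in that organ. Keap1 is the adaptor that marks the antioxidant factor Nrf2 for destruction, so the comparison of AKP::Keap1 with AKP livers asks what the loss of Keap1 adds to the other lesions. The age of the mice and the promoter that drives recombination are not given in the sources used here, and a liver without these lesions was not analysed here. Each level below is the log2 of a probe's background-subtracted intensity minus the 75th percentile of its array, so that 0 is the signal that 75% of probes do not exceed. Levels of different genes come from different probes and are not set against each other.

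Most mitosis genes are silent in resting cells and are transcribed late in the cell cycle. In resting cells the DREAM complex holds their promoters off, and in cycling cells the factors B-Myb and FoxM1 bind at the same promoters and switch them on, through a CHR element, often near CCAAT boxes bound by NF-Y. Hepatocytes of the adult liver are mostly resting and re-enter the cycle after injury or transformation.

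Promoters are shown for the members with the 4 largest genotype differences among those with an entry, and for the members whose value was lower in AKP::Keap1 livers. They were searched for the elements through which this group is known to be switched on. Each window runs from 250 bases before to 50 bases after the gene's start, 5′ to 3′ on the gene's strand, from RefSeq (GRCm38.p6), and capitals mark TTTGAA, the core of the CHR, or CCAAT, on either strand.
Cdc20, chr4:118437294-118437593, minus strand: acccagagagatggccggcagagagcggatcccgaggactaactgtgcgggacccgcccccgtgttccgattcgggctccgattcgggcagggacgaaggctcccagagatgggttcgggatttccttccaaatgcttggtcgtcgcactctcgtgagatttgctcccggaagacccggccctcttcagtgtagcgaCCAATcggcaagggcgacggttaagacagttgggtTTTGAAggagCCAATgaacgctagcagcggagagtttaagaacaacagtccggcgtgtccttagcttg
Cdk1, chr10:69352863-69353162, minus strand: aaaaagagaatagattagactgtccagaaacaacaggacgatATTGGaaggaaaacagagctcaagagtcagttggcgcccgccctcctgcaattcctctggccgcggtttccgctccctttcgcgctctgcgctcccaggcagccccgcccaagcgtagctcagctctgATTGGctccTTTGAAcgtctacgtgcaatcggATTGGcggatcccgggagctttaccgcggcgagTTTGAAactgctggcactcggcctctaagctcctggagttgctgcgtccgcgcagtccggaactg
Ccnb1, chr13:100786437-100786736, minus strand: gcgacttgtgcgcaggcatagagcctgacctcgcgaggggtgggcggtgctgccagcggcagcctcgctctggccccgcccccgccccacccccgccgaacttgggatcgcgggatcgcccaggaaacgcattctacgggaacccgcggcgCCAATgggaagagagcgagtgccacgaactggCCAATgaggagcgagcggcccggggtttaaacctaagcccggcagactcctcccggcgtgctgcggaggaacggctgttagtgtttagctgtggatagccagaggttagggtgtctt
Plk1, chr7:122159185-122159484, plus strand: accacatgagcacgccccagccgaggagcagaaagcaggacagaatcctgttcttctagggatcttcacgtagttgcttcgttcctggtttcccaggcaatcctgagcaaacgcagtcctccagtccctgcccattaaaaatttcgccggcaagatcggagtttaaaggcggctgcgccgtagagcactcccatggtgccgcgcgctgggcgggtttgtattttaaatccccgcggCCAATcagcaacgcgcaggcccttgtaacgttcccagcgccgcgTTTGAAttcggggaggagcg
Spc25, chr2:69206164-69206463, minus strand: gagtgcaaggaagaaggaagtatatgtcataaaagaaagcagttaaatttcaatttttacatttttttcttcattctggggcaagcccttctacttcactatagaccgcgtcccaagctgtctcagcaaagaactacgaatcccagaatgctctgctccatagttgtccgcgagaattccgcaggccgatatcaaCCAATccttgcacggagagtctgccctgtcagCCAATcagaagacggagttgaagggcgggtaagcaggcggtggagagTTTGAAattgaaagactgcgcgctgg
Cenpa, chr5:30666636-30666935, plus strand: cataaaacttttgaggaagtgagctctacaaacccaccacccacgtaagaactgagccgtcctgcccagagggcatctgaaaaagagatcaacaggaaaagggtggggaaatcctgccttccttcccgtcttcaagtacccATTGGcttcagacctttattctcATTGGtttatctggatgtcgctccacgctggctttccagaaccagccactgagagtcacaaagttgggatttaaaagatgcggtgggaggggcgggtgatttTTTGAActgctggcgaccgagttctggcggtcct

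Of the 40 genes, 32 had a promoter in the RefSeq table. TTTGAA stood in 23 of these 32 windows (71.9%), against 20.2% of the windows of all 27025 genes in the table. CCAAT stood in 23 of 32 (71.9%), against 41.1% of all genes, and both letter groups stood in 20 of 32 (62.5%), against 8.97% of all genes. The Ccnb1 window held 2 CCAAT matches and no TTTGAA. The windows of Spc25 and Cenpa, whose levels did not differ between genotypes by the test, each held 1 TTTGAA and 2 CCAAT matches, as did the Cdc20 window for the same letters. A match is a description of the letters and shows no binding.

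The arrays had 65.7% to 70.7% of their spots well above background and no saturated spot, and the 2 livers of each group correlated across genes with r of 0.990 to 0.992, where genes are not independent replicates. Keap1 was lower in AKP::Keap1 livers by a log2 difference of -2.85 and Nqo1, a classical target of Nrf2, was higher by 4.17, so both went with the labels. Y-linked genes also went with the labelled sex. Xist, the RNA of the inactive X chromosome, was at least 10.5-fold higher in AKP females than in AKP males (adjusted p = 0.0028), but its female excess in AKP::Keap1 livers was 0.91 on the log2 scale and did not pass the test (adjusted p = 0.087), and this difference between genotypes passed (adjusted p = 0.036). As a check of the tissue, 6 of 6 hepatocyte marker genes were well above background on all 8 arrays. Each group lay on a slide of its own, with the male slides scanned on another day than the female ones, so group cannot be told apart from slide, nor sex from scan day. No label says whether the mice shared litters, and the p-values measure the spread between the 2 livers of each group.

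The mitosis genes were higher in AKP::Keap1 livers of both sexes, and genes of every stage of division were among those that rose. Over both sexes 32 of the 37 tested genes rose (limma, adjusted p between 0.0011 and 0.026), none fell, and 26 rose at least 2-fold. Of all tested genes, 21.7% rose and 17.4% fell. The median log2 difference of the 37 genes was 1.51, against -0.0038 for all genes. All 4 AKP::Keap1 livers lay above all 4 AKP livers for 28 of the 37 genes and below them for none, against 15.4% and 11.5% of all genes. Aurkb counts among the 32 and the 28, but it passed the filter through the AKP::Keap1 arrays alone. Of the 31 members well above background on all 8 arrays, 27 rose in a fit without dimmer probes. With another background correction (normexp) 24 of 37 were called and the median was 0.81, against -0.12 for all genes. Of the 32 genes, Aurkb, Bub1, Bub1b, Espl1, Ndc80, Nuf2, Kif2c and Kif23 were then not called. With slide as a random block 30 of 37 passed, without Mad2l1 and Kif23. The 5 genes that did not pass the test were Pttg1, Cenpa, Spc24, Spc25 and Kif11. In whole tissue, more dividing cells and more of this RNA per cell cannot be told apart.

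**Figure D1:**
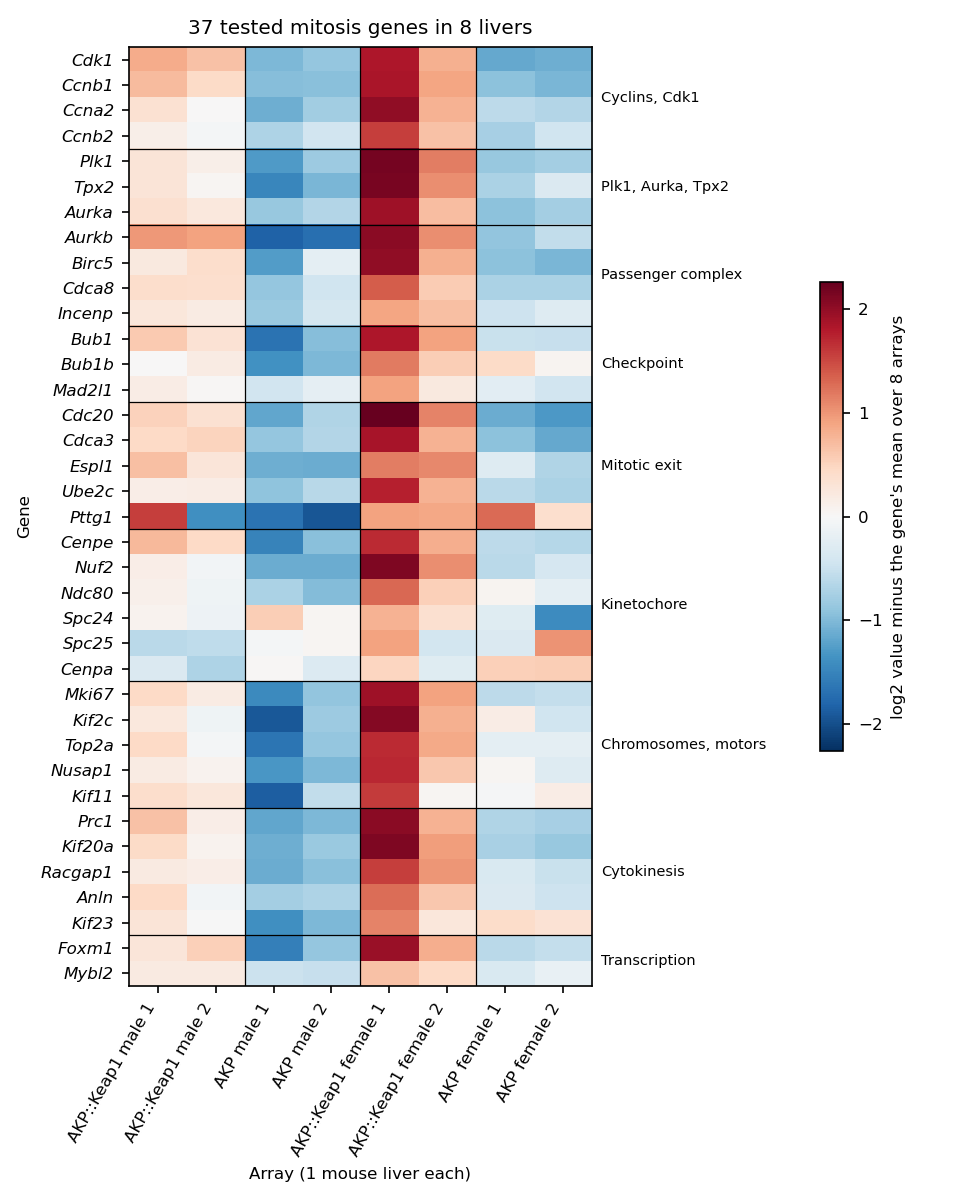
Heat map of the 37 tested mitosis genes (vertical axis, grouped by role) in the 8 livers (horizontal axis), coloured by the log2 level minus the gene's mean over the 8 arrays. AKP::Keap1 columns are mostly red and AKP columns mostly blue, AKP::Keap1 female 1 is the reddest column with a median level of -0.98, and Cenpa, Spc24, Spc25 and Pttg1 break the pattern.

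The cyclins and the kinase they activate, which form the engine of mitotic entry, all rose, 4 of 4 tested. Cdk1, the kinase itself, was at -2.05 and -2.24 in AKP::Keap1 males against -3.90 and -3.76 in AKP males. In females it was at -1.07 and -2.09 in AKP::Keap1 livers against -4.05 and -4.00 in AKP livers. The 4 AKP::Keap1 livers were all high and the groups did not overlap, a log2 difference of 2.07 ± 0.22 (SE, n = 2 mice per group, adjusted p = 0.0019) or 4.19-fold. Ccnb1, the B-type cyclin that binds Cdk1, rose 3.85-fold (adjusted p = 0.0021), and Ccna2, the A-type cyclin of S phase and early mitosis, rose 2.98-fold (adjusted p = 0.007). Ccnb2, the other B-type cyclin, rose 2.24-fold (adjusted p = 0.0088).

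The spindle kinases Plk1 and Aurka and the Aurka activator Tpx2 rose as well, 3 of 3. Plk1, which drives centrosome maturation and entry into mitosis, was at -2.06 and -2.22 in AKP::Keap1 males against -3.64 and -3.18 in AKP males. Its levels in females were -0.19 and -1.20 in AKP::Keap1 livers against -3.21 and -3.13 in AKP livers. Again no AKP liver reached an AKP::Keap1 liver, and Plk1 rose by 1.87 ± 0.24 on the log2 scale (SE, adjusted p = 0.003). Aurka, the centrosomal Aurora kinase, rose 3.05-fold (adjusted p = 0.006), and Tpx2, the microtubule protein that activates it, rose 3.40-fold (adjusted p = 0.0048).

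All 4 genes of the chromosomal passenger complex, which corrects faulty attachments of chromosomes and later acts at the midzone, rose. Its kinase Aurkb was well above background on the 4 AKP::Keap1 arrays and on none of the 4 AKP arrays, so only a bound holds. Aurkb was at least 1.82-fold higher over both sexes, at least 1.33-fold in males and at least 2.50-fold in females. Its adjusted p over both sexes was 0.0013 (limma). Here and for other genes given with a bound, the adjusted p came from the measured levels and not from the bound. This bound sets the mean of the AKP::Keap1 arrays against, on each AKP array, the lowest signal of any probe well above background there or the probe's own, whichever was higher. Measured Aurkb levels were -6.19 and -6.27 in AKP::Keap1 males against -9.01 and -8.88 in AKP males, and -5.14 and -6.12 in AKP::Keap1 females against -8.06 and -7.72 in AKP females. A probe seen on the AKP::Keap1 arrays alone passed the filter through that group, so its difference is partly set by the filter. Birc5 (survivin), the subunit that brings the complex to centromeres, rose 3.29-fold (adjusted p = 0.0096). Cdca8 (borealin) rose by 1.37 on the log2 scale and the scaffold Incenp by 1.0, with adjusted p = 0.004 and 0.0031.

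The spindle checkpoint genes Bub1, Bub1b and Mad2l1, whose products delay anaphase until all chromosomes are attached, rose too, 3 of 3 tested. Bub1, a kinase at the kinetochore that was well above background on 7 of 8 arrays, was at -4.63 and -4.90 in AKP::Keap1 males against -6.90 and -6.19 in AKP males. In females Bub1 was at -3.39 and -4.33 in AKP::Keap1 livers against -5.73 and -5.76 in AKP livers. The groups stood apart within each sex and over both sexes, with a rise of 3.56-fold (adjusted p = 0.0036). Mad2l1, the protein that sequesters Cdc20, had the smallest rise of any member, 1.58-fold (adjusted p = 0.026). Another Mad2l1 probe gave a log2 difference of 0.17 over both sexes and -0.07 in males, and Mad2l1 was not called when that probe or the mean of its probes was used. Ttk was well above background on 1 array, that of AKP::Keap1 female 1, and was not tested.

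Of the 5 genes grouped around mitotic exit, the anaphase-promoting complex and separase, 4 rose. Cdc20, the activator that the checkpoint holds back, was at -0.73 and -0.90 in AKP::Keap1 males against -2.42 and -1.92 in AKP males. Female Cdc20 levels were 1.01 and -0.12 in AKP::Keap1 livers against -2.37 and -2.55 in AKP livers. With no overlap between genotypes, Cdc20 rose 4.38-fold (2.13 ± 0.26 on the log2 scale, SE, adjusted p = 0.0027). Ube2c, the conjugating enzyme of the complex, rose by 1.43 on the log2 scale (adjusted p = 0.0048) and Cdca3, a target of the complex that promotes mitotic entry, rose 3.50-fold (adjusted p = 0.0032). Espl1 (separase), the protease that cuts cohesin, was not well above background in AKP males and was at least 2.99-fold higher in AKP::Keap1 livers (adjusted p = 0.0011).

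Pttg1 (securin), which keeps separase inactive, was the exception of this group. Its levels were 3.65 and 0.69 in AKP::Keap1 males against 0.42 and 0.16 in AKP males, and 3.0 and 2.96 in AKP::Keap1 females against 3.37 and 2.48 in AKP females. AKP::Keap1 male 1 stood near the female livers, AKP::Keap1 male 2 near the AKP males, and the female groups overlapped. The log2 difference over both sexes was 0.97 ± 0.62 (SE, adjusted p = 0.25). A second Pttg1 probe gave -2.96 and -5.13 in AKP::Keap1 males against -5.97 and -5.78 in AKP males, and -3.22 and -3.81 in AKP::Keap1 females against -2.30 and -2.64 in AKP females, with the same liver out of place.

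Kinetochore genes were the most mixed, with 3 of 6 tested genes higher. Cenpe, the motor that carries chromosomes to the spindle equator, was at -1.34 and -1.63 in AKP::Keap1 males against -3.60 and -3.03 in AKP males. In females its levels were -0.39 and -1.25 in AKP::Keap1 livers against -2.68 and -2.73 in AKP livers. Cenpe rose 3.62-fold with no overlap between genotypes (adjusted p = 0.0027). Ndc80, the microtubule-binding subunit of the complex named after it, rose by 0.93 on the log2 scale (adjusted p = 0.012), and its partner Nuf2, not well above background in AKP males, was at least 2.68-fold higher (adjusted p = 0.0042).

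The other subunits of the Ndc80 complex did not pass the test over both sexes. Spc25 was at 0.59 and 0.63 in AKP::Keap1 males against 1.16 and 1.25 in AKP males, and at 2.11 and 0.79 in AKP::Keap1 females against 0.88 and 2.23 in AKP females. Its male groups stood apart with AKP::Keap1 lower, its female groups overlapped, and the log2 difference was -0.35 ± 0.39 (SE, adjusted p = 0.50). Spc24 was at -0.73 and -0.92 in AKP::Keap1 males against -0.25 and -0.75 in AKP males, and at -0.01 and -0.44 in AKP::Keap1 females against -1.08 and -2.22 in AKP females. The AKP::Keap1 livers were on the high side in females and not in males, and the differences were 1.42 ± 0.39 in females (SE, adjusted p = 0.048) and -0.32 ± 0.39 in males (adjusted p = 0.55). Within the Ndc80 complex, 2 subunits thus rose and the other 2 had values of 0.55 ± 0.28 (Spc24) and -0.35 ± 0.39 (Spc25).

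Cenpa, the histone variant that marks the centromere, was at -1.79 and -2.16 in AKP::Keap1 males against -1.43 and -1.77 in AKP males, and at -0.99 and -1.73 in AKP::Keap1 females against -0.92 and -0.91 in AKP females. The AKP::Keap1 livers lay slightly lower in each sex, the male ranges touched at -1.79 and -1.77 without overlap, and the log2 difference was -0.41 ± 0.19 (SE, adjusted p = 0.14). Centring each array on its median, which put the median of all genes at -0.25, gave -0.65 for Cenpa and a call as lower. Cenpa, Spc24 and Spc25 each rest on 1 probe, as do Cenpe and Ndc80, which rose.

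**Figure D2:**
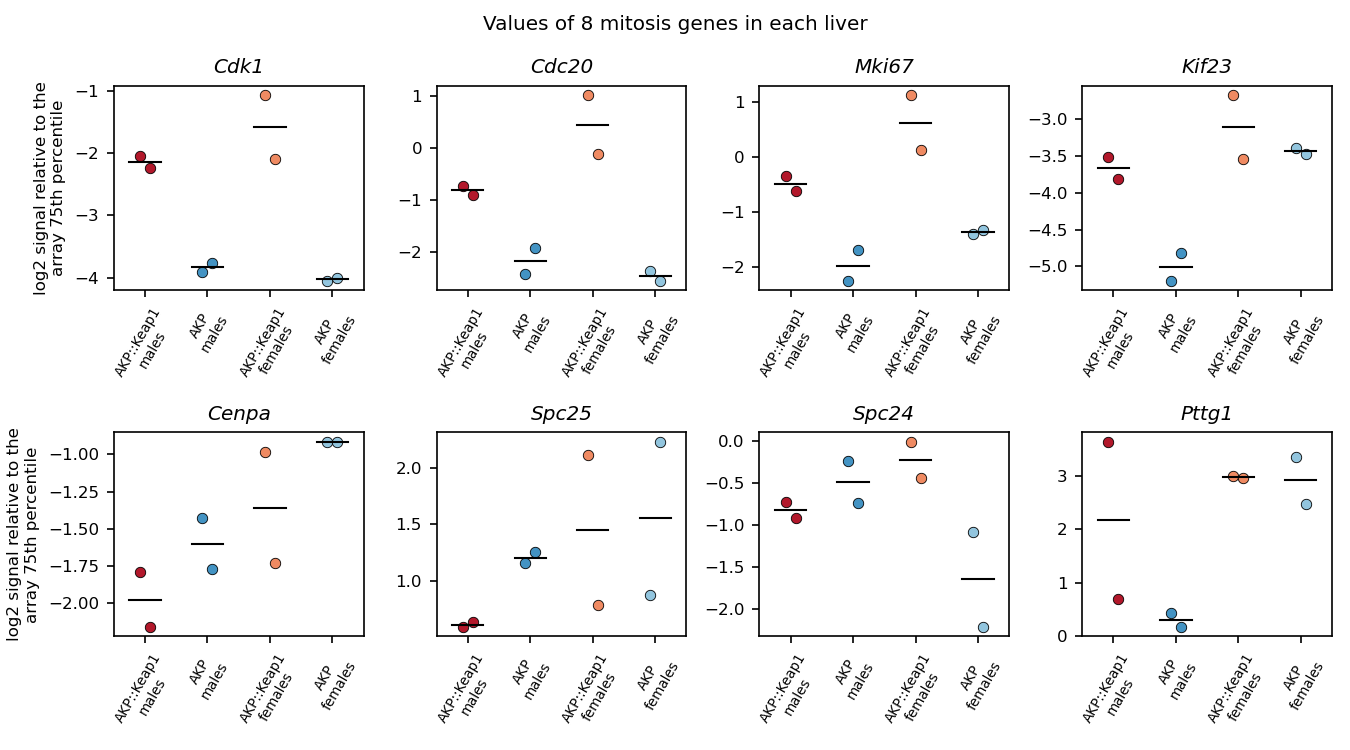
Levels of 8 mitosis genes in each liver (vertical axes, log2 signal relative to the array's 75th percentile; horizontal axes, the 4 groups; points are mice and lines are group means). Cdk1, Cdc20 and Mki67 are higher in AKP::Keap1 livers of each sex, Kif23 in males, while Cenpa, Spc25, Spc24 and Pttg1 show other orders, with AKP::Keap1 male 1 at 3.65 for Pttg1.

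Chromosome and spindle motor genes rose in 4 of 5 cases. Mki67, which coats mitotic chromosomes and marks cycling cells, was at -0.35 and -0.62 in AKP::Keap1 males against -2.24 and -1.69 in AKP males. Among females Mki67 was at 1.11 and 0.12 in AKP::Keap1 livers against -1.40 and -1.33 in AKP livers. Every AKP::Keap1 liver was above every AKP liver, a 3.32-fold rise (adjusted p = 0.0039). Top2a, the topoisomerase that untangles sister chromatids, rose 2.78-fold (adjusted p = 0.0075), and Nusap1, a microtubule bundler, rose by 1.29 on the log2 scale (adjusted p = 0.0099). Kif2c, a depolymerase that removes wrong attachments, was not well above background in AKP males and was at least 2.36-fold higher (adjusted p = 0.022).

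Kif11 (Eg5), the motor that pushes spindle poles apart, did not pass the test. It was at -5.81 and -5.94 in AKP::Keap1 males against -8.08 and -6.76 in AKP males, where it was not well above background, and at -4.63 and -6.16 in AKP::Keap1 females against -6.23 and -6.05 in AKP females. AKP::Keap1 female 1 stood alone on the high side among females, and AKP::Keap1 female 2 lay between the AKP females. The log2 difference was 1.14 ± 0.41 (SE, adjusted p = 0.071).

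Cytokinesis genes rose in 5 of 5 cases. Prc1, the bundler of the central spindle, was at -1.29 and -1.82 in AKP::Keap1 males against -3.13 and -2.98 in AKP males. Its female levels were 0.08 and -1.17 in AKP::Keap1 livers against -2.65 and -2.72 in AKP livers. The genotypes did not overlap and Prc1 rose 3.52-fold (adjusted p = 0.0052). Kif20a, a midzone motor that brings the passenger complex there, rose 3.43-fold (adjusted p = 0.0044). Racgap1, the GTPase-activating subunit of centralspindlin, rose 2.75-fold (adjusted p = 0.0015), and its partner motor Kif23 1.79-fold (adjusted p = 0.024). Anln (anillin), a scaffold of the contractile ring, rose by 1.14 on the log2 scale (adjusted p = 0.0056).

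Both transcription factors of the list rose. Foxm1, the forkhead factor that drives late cell cycle genes, was at -3.96 and -3.69 in AKP::Keap1 males against -5.79 and -5.11 in AKP males. Its levels in females were -2.29 and -3.42 in AKP::Keap1 livers against -4.85 and -4.78 in AKP livers. The groups stood apart and Foxm1 rose 3.46-fold (adjusted p = 0.0052). Mybl2 (B-Myb), the factor that takes the place of the repressor on the same promoters, rose by less, 1.69-fold, with a narrow error (0.76 ± 0.09 on the log2 scale, SE, adjusted p = 0.0027).

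Within each sex most members rose. In males 23 of 37 genes rose, none fell, and the median log2 difference was 1.27, while 16.5% of all genes rose in males and 12.5% fell. With normexp the male median was 0.37, against -0.23 for all genes, and 27 of 37 values were positive. In females 30 of 37 rose, none fell, and the median was 1.71, while 12.6% of all genes rose and 8.93% fell. The 2 AKP::Keap1 livers lay above the 2 AKP livers for 34 of 37 genes in males, against 34.1% of all genes, and below them for 2, against 39.4%. In females they lay above for 32 of 37, against 37.1%, and below for 1, against 28%. Calls were shared by both sexes for 21 genes, stood in males alone for 2 (Bub1b and Kif23) and in females alone for 9. The count within 1 sex leaned on single livers: in males, removing AKP male 1 left 2 calls, removing AKP male 2 left 8, removing AKP::Keap1 male 1 left 2, removing AKP::Keap1 male 2 left 3, and removing either AKP female, whose spread enters the same fit, left 13. Removing 1 of the 4 males left 34 of 37 values positive with medians of 1.09 to 1.46, while the number of all genes that rose in males dropped to between 798 and 1245, against 2607 with all 8 livers. In females the count also dropped when either AKP female was removed. There 35 of 37 values stayed positive, with a median of 1.90 without AKP female 1 and 1.86 without AKP female 2.

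**Figure D3:**
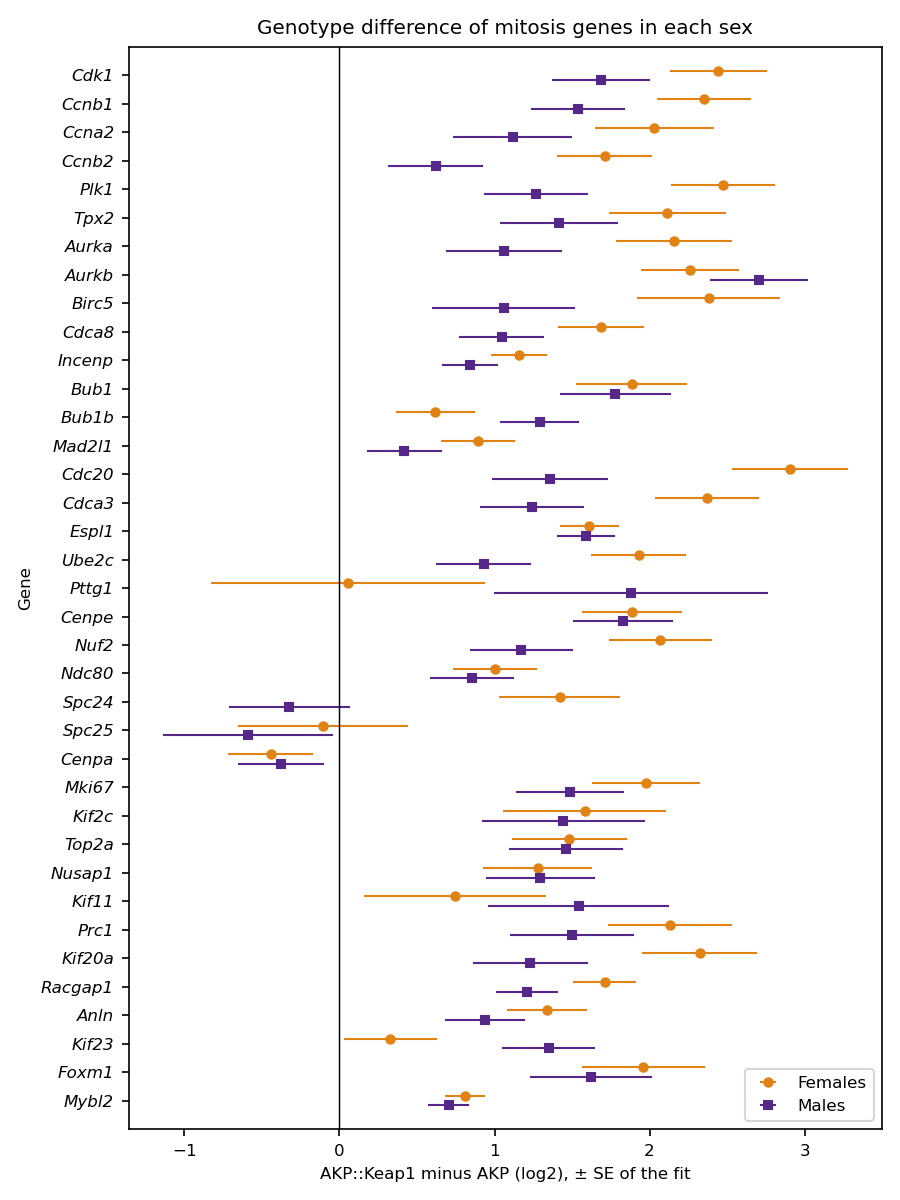
Log2 difference of AKP::Keap1 minus AKP livers (horizontal axis, bars are the standard error of the fit, n = 2 mice per group) for the 37 tested mitosis genes (vertical axis) in females (circles) and males (squares). Most points lie right of 0 in both sexes, 30 genes have the larger difference in females, and Cenpa and Spc25 lie left of 0 in both.

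The female difference was the larger one for 30 of 37 genes, with a median excess of 0.49 on the log2 scale and a range from -1.82 to 1.75, but no member passed the test of the difference between sexes. The median excess of all genes was 0.038. Without AKP::Keap1 female 1 the female difference was the larger one for 21 of 37 genes, with a median excess of 0.081, against 0.043 for all genes. Without scaling of the arrays it was the larger one for 20 of 37, with a median of 0.069, but all genes then had -0.38. The smallest adjusted p was 0.13 (limma), while 0.448% of all genes passed with a larger value in females and 1.23% with a smaller one. An unadjusted p below 0.05 was found for 4 of 37 members, against 3744 of all 15834 genes. Of these 3744 genes, 2082 had the larger value in females. The 4 members were Spc24 with 1.75 ± 0.55, Cdc20 with 1.55 ± 0.53, Plk1 with 1.20 ± 0.47 and Ccnb2 with 1.09 ± 0.43 on the log2 scale (SE). Cdc20 and Plk1 rose in each sex, while Ccnb2 and Spc24 rose in females alone, with male values of 0.62 (adjusted p = 0.17) and -0.32 (adjusted p = 0.55).

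Females and males of the same genotype were compared directly. In AKP::Keap1 livers all 37 genes had the higher mean in females, with log2 differences between 0.35 and 1.53 and a median of 0.91, and both females lay above both males for 33 of 37 genes and below them for none, against 27.9% and 26.9% of all genes. An unadjusted p below 0.05 (limma) was found there for 25 of 37 members, all higher in females. Of all 15834 genes, 1709 had such a p with the higher value in females and 1707 with the lower. Racgap1 alone passed the adjusted test in AKP::Keap1 livers, at 1.11 ± 0.20 (SE, adjusted p = 0.042), while 1.12% of all genes were called higher and 2.68% lower. The count was 15 without AKP::Keap1 female 2 and 0 without any 1 of the other 7 livers. The median female excess was 0.46 without AKP::Keap1 female 1 (36 of 37 positive) and 1.40 without AKP::Keap1 female 2. In AKP livers 27 of 37 had the higher mean in females, with a median of 0.37 against -0.046 for all genes. With a median shift the median was 0.18, against -0.24 for all genes. With normexp 17 of 37 had the higher mean in females, and the median was -0.038 against -0.16 for all genes. In AKP livers 2 genes were called higher and none lower, while 8.67% of all genes were called higher and 11.4% lower. The AKP females lay above the AKP males for 22 members and below them for 3, against 29.7% and 36.7% of all genes.

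Those 2 were the genes that rose with genotype in males alone. Bub1b (BubR1), the checkpoint pseudokinase, was at -3.78 and -4.15 in AKP females against -5.58 and -5.23 in AKP males, a log2 difference of 1.44 (adjusted p = 0.017). Kif23 was at -3.39 and -3.48 in AKP females against -5.20 and -4.82 in AKP males, a difference of 1.58 (adjusted p = 0.021). With normexp neither Bub1b nor Kif23 was called for sex. In AKP::Keap1 livers Kif23 was at -2.67 and -3.54 in females and at -3.51 and -3.81 in males. The AKP females thus lay within the range of the AKP::Keap1 livers for Kif23, and the genotype difference was 0.33 in females (adjusted p = 0.46) and 1.35 in males (adjusted p = 0.024). The Bub1b genotype difference was 0.62 in females (adjusted p = 0.13) and 1.29 in males (adjusted p = 0.018). For neither gene did the difference between sexes pass its own test. Leaving out 1 liver gave between 0 and 7 calls for sex in AKP livers: 0 without AKP male 1 or AKP female 1, 1 without AKP male 2 or AKP female 2, and 7 without either AKP::Keap1 female.

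The 2 AKP::Keap1 females differed from each other in one direction. AKP::Keap1 female 1 was above AKP::Keap1 female 2 for 37 of 37 members, by 0.04 to 1.54 on the log2 scale with a median of 0.98. Over all genes the same gap had a median of 0.04 and was above 0 for 56.0% of genes, and 2.37% of all genes had a gap above 0.98. The gap between mice 1 and 2 had a median of 0.19 in AKP::Keap1 males, -0.27 in AKP males and 0.06 in AKP females. The rise in females did not rest on the higher liver alone: AKP::Keap1 female 1 stood above the AKP female mean by a median of 2.21 (36 of 37 genes higher), and AKP::Keap1 female 2 by 1.42 (33 of 37 higher). Without AKP::Keap1 female 1 the 32 genes that rose over both sexes were all still called, and in females alone 23 of 37 were.

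**Figure D4:**
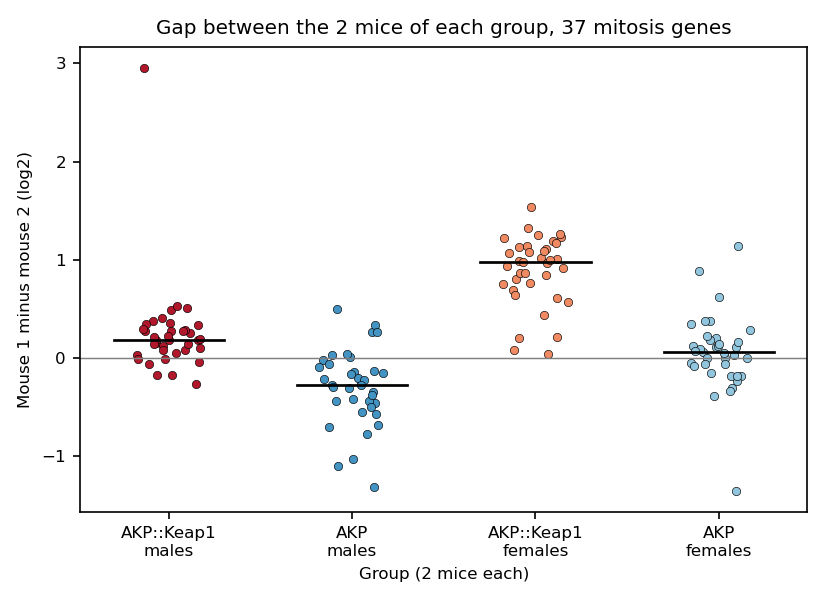
Level in mouse 1 minus level in mouse 2 of each group (vertical axis, log2) for the 37 tested mitosis genes (points; lines are medians) in the 4 groups (horizontal axis). All 37 points of AKP::Keap1 females lie above 0 with a median of 0.98, while the medians of the other groups lie at 0.19 for AKP::Keap1 males, -0.27 for AKP males and 0.06 for AKP females.

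Further genes of mitosis that are no members (condensins, kinesins, centromere and spindle proteins) also rose for the most part, with exceptions in the opposite direction. Of 76 such genes 73 were tested, 44 rose and 3 fell, with a median log2 difference of 0.94. Of all tested genes, 21.7% rose and 17.4% fell, with a median of -0.0038. Fam83d and Kif18b, among those that rose, were not well above background in either AKP group and passed the filter through the AKP::Keap1 arrays. The list was chosen with earlier results of these data known. Among those that rose, the smallest adjusted p belonged to Psrc1, a microtubule-associated protein, and Iqgap3, a scaffold of cytokinesis, both not well above background in AKP males and at least 5.06-fold and 3.52-fold higher (adjusted p = 0.0003 and 0.0008), and to Arhgap11a with 1.48 ± 0.13 (SE, adjusted p = 0.0013). Those that fell were Mis12, a kinetochore platform protein, with -1.37 (adjusted p = 0.0024), Hjurp, the chaperone that loads Cenpa, with -0.88 (adjusted p = 0.015), and Ncaph2, a condensin II subunit, with -0.28 (adjusted p = 0.033). Hjurp differed by -1.43 in females (adjusted p = 0.018) and by -0.33 in males (adjusted p = 0.39), and Ncaph2 by -0.19 in females (adjusted p = 0.26) and -0.38 in males (adjusted p = 0.0496); neither difference between sexes passed its test. Mis12 was at -2.79 and -2.95 in AKP::Keap1 males against -1.30 and -1.72 in AKP males, and at -2.46 and -2.70 in AKP::Keap1 females against -1.45 and -0.95 in AKP females. The 4 AKP::Keap1 livers were thus all below the AKP livers for Mis12.

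Regulators of the step from G1 to S phase, which act before mitosis, did not move as a block. Of 30 such genes 29 were tested, 10 rose and 3 fell, with a median of 0.19. The shares of all genes that rose and fell were 21.7% and 17.4%. The smallest adjusted p among those that rose belonged to Cdkn2b and Cdkn2a, inhibitors of the G1 cyclin-dependent kinases, with 2.51 ± 0.27 and 3.26 ± 0.42 (SE, adjusted p = 0.0020 and 0.0031), and to E2f1, an activating E2F factor, with 0.79 ± 0.13 (adjusted p = 0.0067). The 3 that fell were Cdk2, the S phase kinase, with -1.14 ± 0.13 (adjusted p = 0.0022), Rbl2 (p130), the pocket protein of the DREAM complex, with -0.54 (adjusted p = 0.015), and E2f5, a repressive E2F, with -0.34 (adjusted p = 0.027). Within sexes these 3 passed the test in females alone. Cdk2 differed by -1.99 in females (adjusted p = 0.0034) and by -0.28 in males (adjusted p = 0.28), and its difference between sexes passed its own test (-1.72 ± 0.26, SE, adjusted p = 0.045). Rbl2 differed by -0.94 in females and -0.13 in males, and E2f5 by -0.57 in females and -0.12 in males, without passing that test. E2f1 rose in females (1.20) and was at 0.38 in males (adjusted p = 0.17).

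**Figure D5:**
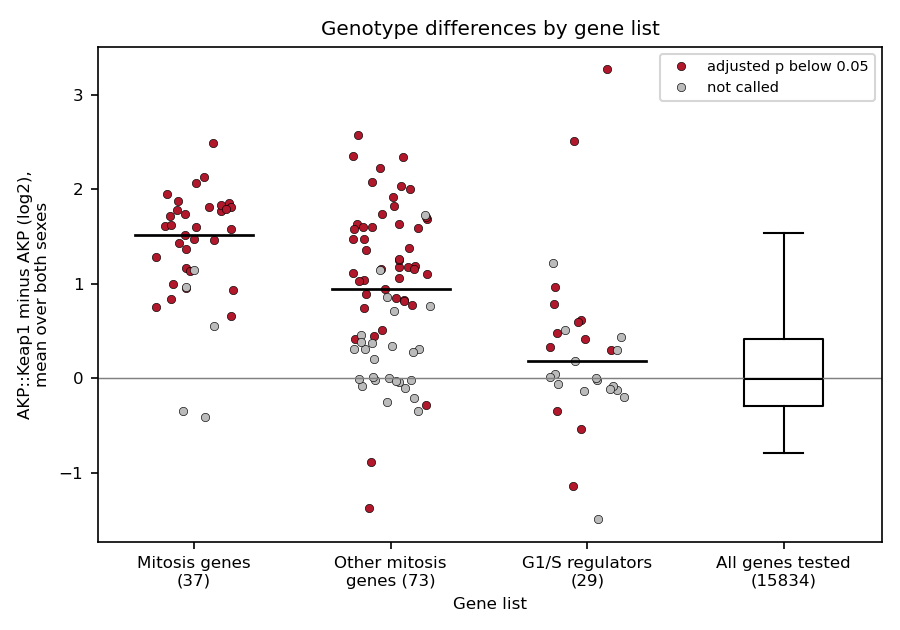
Log2 difference of AKP::Keap1 minus AKP livers over both sexes (vertical axis) for the mitosis genes, the other mitosis genes and the G1/S regulators (points, red where the adjusted p is below 0.05; lines are medians), beside all genes tested (box, quartiles and median; whiskers, the 5th to 95th percentile). Medians are 1.51, 0.94, 0.19 and -0.0038.

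Markers of several cell types moved with genotype beside the mitosis genes. All 5 biliary markers rose, with a median log2 difference of 3.28, and their summed signal, in units of the array's 75th percentile, was 61.5 to 72.0 in AKP::Keap1 males against 6.26 to 8.01 in AKP males and 29.7 to 66.3 in AKP::Keap1 females against 2.75 to 7.56 in AKP females. Neutrophil markers rose in 2 of 3 cases (summed signal 48.5 to 50.7 in AKP::Keap1 males against 33.6 to 37.9 in AKP males, and 50.8 to 57.9 in AKP::Keap1 females against 35.1 to 37.4 in AKP females). Hepatocyte markers fell in 3 of 6 cases (summed signal 869 to 891 in AKP::Keap1 males against 1225 to 1459 in AKP males, and 741 to 959 in AKP::Keap1 females against 910 to 992 in AKP females). Stellate and fibroblast markers rose in 3 of 5 cases and fell in 1, and endothelial markers fell in 2 of 4. Macrophage (Ccr2), T and NK (Cd3e) and B cell (Cd79a) markers each rose in 1 case, of 4, 5 and 4. Their lists had median log2 differences of 0.19, 0.43 and 0.49. Of all tested genes, 21.7% rose and 17.4% fell, so 1 call in such a short list lies near the share of all genes. Cd79a was not well above background in AKP males and was at least 1.05-fold higher over both sexes. No B cell marker was called in females. Erythroid precursor markers, of cells that divide in some diseased livers, were called in 0 of 4 cases, and 1 of the 4 had an unadjusted p below 0.05 (limma). AKP::Keap1 female 1, the higher of its group for the mitosis genes, had a biliary sum of 29.7 against 66.3 in AKP::Keap1 female 2, but T and NK sums of 43.7 against 21.3 and neutrophil sums of 57.9 against 50.8. AKP::Keap1 male 1, which had the higher median of the mitosis genes in its group, also had the higher biliary sum, 72.0 against 61.5 in AKP::Keap1 male 2. Its T and NK sum was 43.3 against 36.7, and its neutrophil sum was 48.5 against 50.7. The part of these cell types in the rise of the mitosis genes was not tested.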

How the data were processed

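Total RNA of each liver, 500 ng per sample, was labelled with Cy3 and hybridised to array design 026655, per the labels' protocols and the file headers. The deposited scanner files hold intensity per spot from Feature Extraction 10.7.3.1 (mm9 annotation) per the file headers, while version 10.1 stands in the submitters' processing notes. Used here was the processed signal, an intensity from which that software had subtracted background, and the deposited series matrix held the same intensity in 355176 of 355176 values (relative tolerance 1e-06).

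Of 44397 spots per array, 1377 controls and spots marked as outliers were left out. Log2 values were computed here from the deposited intensity, averaged per probe and scaled to each array's 75th percentile. Probes were named through RefSeq accessions (GRCm38.p6), which gave 26055 probes 1 of 19751 symbols and left 13374 unnamed, and 58 named probes missing on an array were dropped. Probes stayed in where 2 or more of the 8 arrays flagged them as well above background, and each gene took its brightest remaining probe.

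Differences were fitted with limma 3.58.1 in R 4.3.3, 1 mean per group over all 8 arrays, and the two-sided p-values were adjusted by Benjamini-Hochberg over all 15834 genes, with calls below 0.05. The ± values are that fit's standard errors. Contrasts were genotype over both sexes and within each, its difference between sexes (female minus male), and sex within each genotype. The fit was tested on simulated data. Levels in each liver are given for the member with the largest genotype difference in each role and for members without a genotype call. They are also given for Bub1b and Kif23, which were chosen after their values were seen, as was Mis12. Of the other mitosis genes and G1/S regulators, those with the 3 smallest adjusted p in each direction are named. Members and lists were chosen with earlier results of these data known. Alternatives were other scalings, normexp background correction (offset 50, on the median signal, as the mean signal was not used here), other filters and probe choices, a replicate block, slide as a random block, the compared arrays alone and each array left out.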

Additional observations from a re-analysis of the deposited data

How the results depend on the processing

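Over both sexes the count of members called stayed between 24 (normexp background correction) and 34 over the alternatives run, and was 27 of 31 with the filter for probes bright on all arrays. Leaving out 1 liver gave 29 to 33 calls, and the calls lost were among Mad2l1, Kif2c and Kif23. Cenpa was called lower with a median shift and without AKP::Keap1 female 1. The value of Kif11 turned to -0.038 with normexp. No member was called for a difference between sexes under any alternative run. Scaling moved the balance of all genes: 3431 rose and 2750 fell with the 75th percentile, against 2381 and 6337 with a median shift (median of all genes -0.25), 2956 and 2848 with quantile normalization, 2188 and 3779 with normexp (-0.12) and 5703 and 646 unscaled (0.31).

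In males the count of 23 was 13 with a median shift, 11 with quantile normalization, 11 with normexp and 14 with no filter, and 2 to 28 with 1 liver left out. In females the count of 30 was 10 with only the 4 arrays compared and 8 to 29 with 1 liver left out. For sex in AKP livers the count of 2 was 1 with normexp (called lower, with both genes called higher before lost), 4 with only the 4 arrays compared and 0 to 7 with 1 liver left out. For sex in AKP::Keap1 livers the count of 1 was 2 with normexp, 0 with no filter, 0 with the mean of a gene's probes, 0 with only the 4 arrays compared and 0 to 15 with 1 liver left out. Using the dimmest kept probe of a gene, an alternative chosen after seeing the data, gave 4 calls for sex in AKP livers and 0 in AKP::Keap1 livers. Calls over all genes moved too. In males 2607 genes rose in the fit above, 1726 with a median shift, 1761 with quantile normalization and 1503 with normexp. In females 1995 rose in the fit above and 726 with only the 4 arrays compared. With only those arrays, 7.64% of all genes were called for sex in AKP livers, against 20.0%. In AKP::Keap1 livers 2.30% were, against 3.80%. With any 1 liver left out, fewer of all genes were called higher in each contrast. The cause of these shifts was not tested.

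Deviations of livers with the same number had correlations of -0.16 to 0.12 across genes over 6 pairs. With 2 mice per group, such values cannot settle whether the numbers pair the livers. Number 1 always lay at array position 3 and number 2 at position 4, so number cannot be told apart from position. With the replicate number as a block, 32 members were called over both sexes, 17 in males, 27 in females, 4 for sex in AKP livers and 0 for sex in AKP::Keap1 livers. The shares of all genes called were, in the same order, 35.7%, 24.4%, 18.9%, 15.4% and 2.69%. With 2 mice per group, precision is limited by the number of arrays, and probes near background carry only bounds.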

Other observations

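Cdc25c and Ttk, left out of the tests as too dim, were each well above background on 1 of 8 arrays, and in both cases it was the array of AKP::Keap1 female 1, the liver with the highest median level of the tested mitosis genes. Cenpf was well above background on none. Of the 15 members with several probes on the array, 13 had more than 1 kept probe, and for all 13 the probes gave the genotype difference over both sexes the same sign.

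By group, the median level of the 37 tested genes was -2.05 and -2.22 in AKP::Keap1 males against -3.60 and -3.15 in AKP males, and -0.98 and -1.72 in AKP::Keap1 females against -2.98 and -3.08 in AKP females. The liver with the lowest median was AKP male 1 and the 4 AKP livers lay below the 4 AKP::Keap1 livers.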
